A study of Mus musculus with 9 samples.

Results

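The genes of the primary cilium and of intraflagellar transport were followed in 9 bulk RNA sequencing libraries of mouse medulloblastoma, recorded under the tissue name MB, at postnatal day 8 or 9. The set held every gene whose symbol begins with Ift or Bbs and a number, which gave 15 and 8 genes, and 23 further genes named one by one, 46 in all of the 17482 genes in the deposited table. No listed symbol was absent. YSGr (rescued) and YSGnr (non-rescued) tumours carried floxed Yap1 (fYap1), the conditional SMO-M2 allele (fSMO-M2) and the hGFAPcre driver. SG tumours carried fSMO-M2 and hGFAPcre without the floxed Yap1 allele. Each group had 3 libraries, and all 3 groups therefore shared the active Smoothened allele and the Cre driver, so no comparison here is with tissue that lacks SMO-M2. SMO-M2 is a constitutively active form of Smoothened, and hGFAPcre expresses Cre from a human GFAP promoter, which is active in neural progenitors of the developing brain. Rescue is not defined in the labels. Nor do they say if the 3 libraries of a group came from separate animals. The p-values therefore describe spread among libraries, part of which may be technical.

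The primary cilium is a single antenna that projects from the cell surface on a modified centriole, the basal body. Intraflagellar transport builds and maintains it: complex B, pulled outward by kinesin-2, carries tubulin and other cargo to the tip, and complex A with the dynein-2 motor returns material to the base, while the BBSome moves membrane proteins out of the cilium. The transition zone at the base is a gate that sets which proteins enter. Vertebrate Hedgehog signalling runs through this organelle, since Patched leaves it and Smoothened enters it when the pathway is on, and Gli proteins are processed there. In the cerebellum, granule neuron progenitors carry a primary cilium, and in mice loss of the cilium blocks tumours driven by active Smoothened.

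RFX transcription factors, to which Rfx2 and Rfx3 belong, bind a site called the X-box in the promoters of many ciliary genes. Promoter windows of 300 bases, from 250 before to 50 after the start site, were available from RefSeq (GRCm38.p6) for 40 of the 46 genes and were searched for an inverted repeat that reads the same on both strands. The stricter form, GTTNCNNNNGNAAC, was found in 3 of the 40 genes (7.5%), against 1.19% of 27025 genes with a window. Among the 10899 of these that entered the expression test described below, the share was 1.45%. A looser form, GTNNCNNNNGNNAC, which includes every match of the stricter one, was found in 11 of the 40 (27.5%), against 8.13% of all genes and 9.69% of those that entered the test. The promoters below are those of Bbs7, Mks1 and Tctn1, the 3 with the stricter form, and that of Rfx2, shown because its level is a main result, which holds only the looser form and was chosen after its values were seen. Capitals mark the match. A match describes the letters and is not evidence of binding.
Bbs7 (chr3:36613340-36613639, minus strand): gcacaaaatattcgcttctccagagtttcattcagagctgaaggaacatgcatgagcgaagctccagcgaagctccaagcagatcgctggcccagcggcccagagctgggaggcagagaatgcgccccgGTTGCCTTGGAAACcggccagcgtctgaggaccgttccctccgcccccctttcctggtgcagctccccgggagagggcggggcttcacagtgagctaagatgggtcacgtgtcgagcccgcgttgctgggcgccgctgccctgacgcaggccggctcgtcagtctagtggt
Mks1 (chr11:87852965-87853264, plus strand): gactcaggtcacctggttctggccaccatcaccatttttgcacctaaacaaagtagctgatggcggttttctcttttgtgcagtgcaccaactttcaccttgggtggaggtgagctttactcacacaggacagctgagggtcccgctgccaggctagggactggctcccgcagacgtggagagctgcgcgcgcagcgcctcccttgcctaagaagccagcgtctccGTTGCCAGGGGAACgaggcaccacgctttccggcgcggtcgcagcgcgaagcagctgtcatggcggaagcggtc
Tctn1 (chr5:122264411-122264710, minus strand): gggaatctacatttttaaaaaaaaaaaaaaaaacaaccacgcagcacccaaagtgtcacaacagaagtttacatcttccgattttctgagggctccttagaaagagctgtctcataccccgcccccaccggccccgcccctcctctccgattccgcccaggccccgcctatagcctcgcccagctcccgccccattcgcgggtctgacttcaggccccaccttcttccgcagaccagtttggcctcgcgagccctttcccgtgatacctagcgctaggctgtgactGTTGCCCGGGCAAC
Rfx2 (chr17:56830959-56831258, minus strand): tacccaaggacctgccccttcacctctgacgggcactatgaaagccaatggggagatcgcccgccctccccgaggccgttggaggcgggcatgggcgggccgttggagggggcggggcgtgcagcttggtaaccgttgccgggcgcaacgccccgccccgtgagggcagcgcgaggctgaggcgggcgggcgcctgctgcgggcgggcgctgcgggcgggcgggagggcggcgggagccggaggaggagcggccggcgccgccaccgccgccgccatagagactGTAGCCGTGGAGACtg
Relative to the start site, the match begins at base -121 in Bbs7, at -24 in Mks1, at 36 in Tctn1 and at 34 in Rfx2.

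Levels are given as the deposited log2 CPM, always in the order replicate 1, 2 and 3. This is log2 of the reads a gene has per 1 M (mega) reads of a scaled library size, with a small count added by the authors. The scaled size, back-calculated from the values, was 3.92 M for YSGnr replicate 1, well below its reads. For the other libraries it was 18.1 to 32.3 M. Differences were tested with limma over all 9 libraries. The 15251 genes that exceeded a log2 CPM of 0 in 3 or more libraries were tested, and those with a Benjamini-Hochberg adjusted p under 0.05 were called. Of the 46 genes 45 entered the test. The exception was Ift88os, an antisense RNA of Ift88, which had between 1 and 14 reads per library. The libraries held 17.3 to 29.2 M back-calculated reads, apart from YSGnr replicate 1 with 9.66 M. In that library 63.4% of reads came from Yam1 and Lars2, so low genes are least precise there. The targeted gene Yap1 stood at 4.44, 3.31 and 2.79 log2 CPM in YSGr, at 2.79, 2.57 and 1.99 in YSGnr and at 5.04, 5.11 and 5.03 in SG, all 6 libraries with the floxed allele being below the 3 SG libraries. Granule neuron progenitor genes, which mark this kind of medulloblastoma, were detected in all groups. Of that list of 14 genes, 12 had a log2 fold change below 0 in YSGr against SG (median -0.79). Zic1, a transcription factor of the lineage and the highest of the 14 in that fold change, lay between 9.66 and 10.51 in YSGr, between 9.79 and 9.82 in YSGnr and between 9.81 and 9.98 in SG. Atoh1, the factor that specifies the lineage, stood at 3.89, 3.34 and 6.89 log2 CPM in YSGr, at 6.25, 6.31 and 6.53 in YSGnr and at 5.89, 6.76 and 6.15 in SG, low in YSGr replicates 1 and 2. All YSGr libraries and YSGnr replicate 1 had high Xist and Ddx3y, a Y-linked gene, at the table's minimum. The SG libraries and YSGnr replicates 2 and 3 had the opposite pattern, so no YSGr library matches an SG library in these transcripts. Tissue was bulk, so fewer ciliated cells and less RNA per cell cannot be told apart.

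YSGr differed from SG in 6 of the 45 genes. Kif17, a kinesin-2 motor, rose, and Cep290, Ofd1, Ift81, Kif7 and Rfx2 fell. That is 13.3% of the genes tested, against 10.5% of all 15251 genes. In the lower direction it is 5 genes, where 3.97% of all genes were called lower. In the higher direction it is 1 gene, where 6.58% of all genes were called higher. The median log2 fold change of the 45 genes was -0.23, with 32 below 0, while that of all genes tested was -0.02. YSGnr differed from SG in 1 gene, Rfx2, which fell, against 3.36% of all genes called (1.19% higher and 2.17% lower). The median was -0.02 over the 45 genes and -0.01 over all genes. YSGr differed from YSGnr in 1 gene, Kif17, which rose, against 5.97% of all genes called (5.09% higher and 0.879% lower). The median was -0.20 over the 45 genes and 0.01 over all genes. Values did not overlap between YSGr and SG in 20 of the 45 genes, against 36.8% of all genes. Of these 16 were lower in YSGr (17.3% of all genes) and 4 higher (19.5%). Values did not overlap between YSGnr and SG in 19, against 38.2% of all genes, with 11 lower in YSGnr (21.3%) and 8 higher (16.9%). Values did not overlap between YSGr and YSGnr in 9, against 22.5% of all genes, with 7 lower in YSGr (7.46%) and 2 higher (15%). The share of these genes called in either direction was near the background in each comparison, and most of the set did not pass the test.

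**Figure D1:**
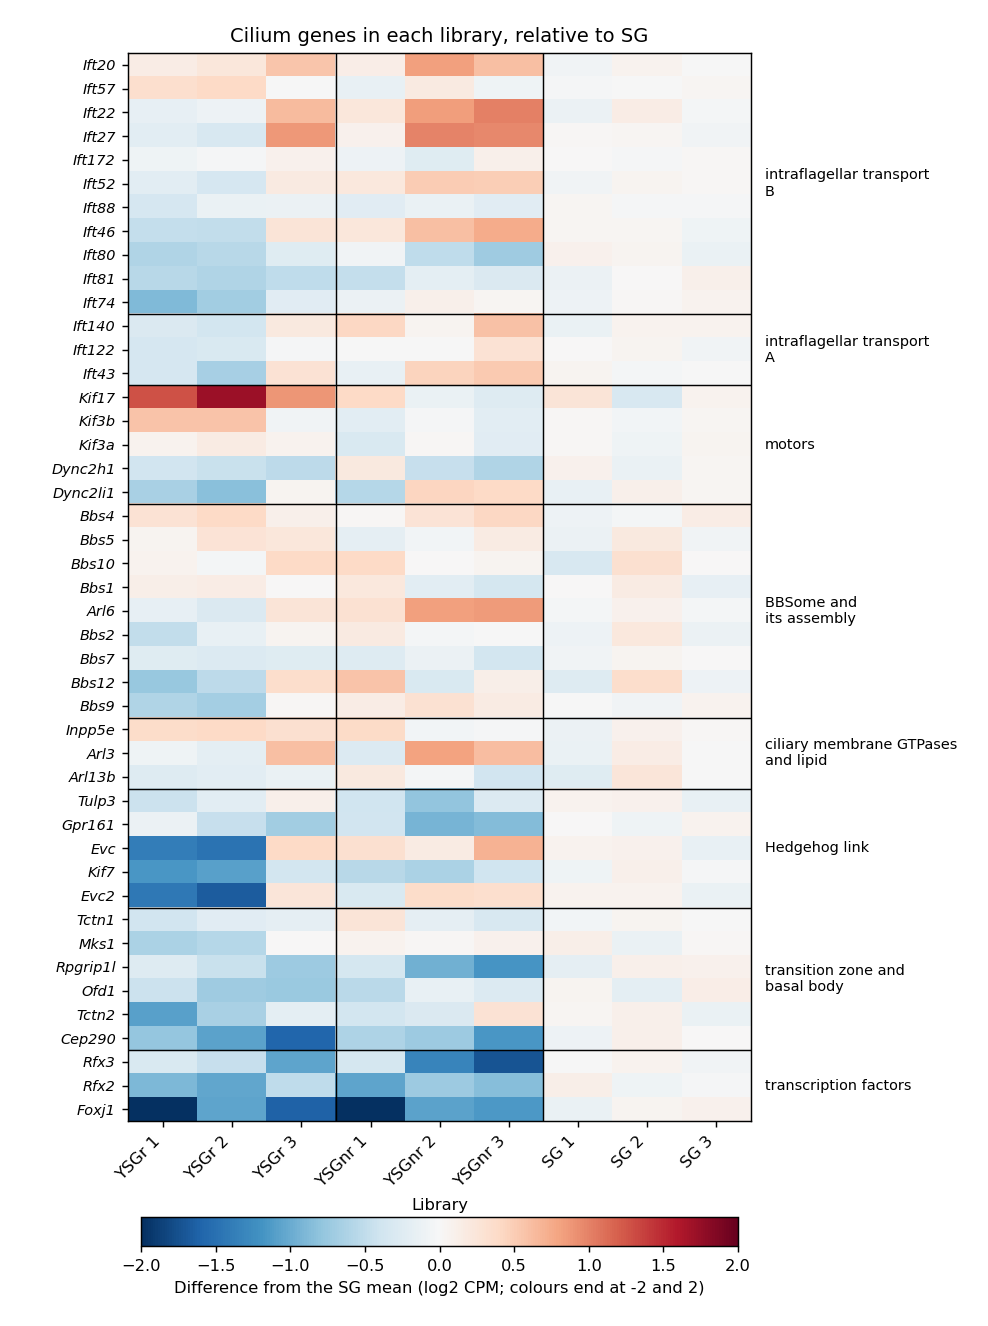
Difference of each library from the mean of the 3 SG libraries in log2 CPM for 45 genes (rows, grouped by role) in the YSGr, YSGnr and SG libraries (columns); blue is below the SG mean and red above it, and the colours end at -2 and 2. Foxj1, Rfx2 and Rfx3 in the bottom rows are below the SG mean in all 6 libraries with the floxed Yap1 allele, Evc and Evc2 are lowest in YSGr replicates 1 and 2, and Kif17 is high in the 3 YSGr libraries.

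The transcription factors of the set were lower in every library with the floxed Yap1 allele than in any SG library. Foxj1, the forkhead factor that in vertebrates drives motile cilium genes, stood at 1.76, 2.85 and 2.28 log2 CPM in YSGr, at 1.09, 2.83 and 2.74 in YSGnr and at 3.76, 3.95 and 3.98 in SG. Its mean was 3.03-fold lower in YSGr and 3.20-fold lower in YSGnr, but the spread within these groups was wide and neither difference was called (log2 fold change -1.60, SE 0.45, adjusted p = 0.0527 in YSGr; log2 fold change -1.68, SE 0.45, adjusted p = 0.0700 in YSGnr). Only 8 reads lie behind the lowest value, that of YSGnr replicate 1. Rfx2 (chr17:56775897-56831013, GRCm38), an RFX factor that acts on ciliary genes, stood at 2.38, 2.25 and 2.76 log2 CPM in YSGr, at 2.23, 2.55 and 2.42 in YSGnr and at 3.39, 3.20 and 3.25 in SG. The groups with and without the floxed allele did not overlap, and Rfx2 fell in YSGr (log2 fold change -0.82, SE 0.19, adjusted p = 0.0294) and in YSGnr (log2 fold change -0.88, SE 0.19, adjusted p = 0.0442), which is 1.76-fold lower in YSGr and 1.84-fold lower in YSGnr. The call in YSGr was lost without YSGr replicate 1 or 2 or any SG replicate (adjusted p between 0.0946 and 0.132), and that in YSGnr without any library other than YSGr replicate 3 or YSGnr replicate 1 (adjusted p between 0.0635 and 0.193). Rfx3, the third factor, which in mice is needed for nodal and ependymal cilia, stood at 5.99, 5.84 and 5.24 log2 CPM in YSGr, at 5.95, 4.97 and 4.58 in YSGnr and at 6.30, 6.36 and 6.23 in SG. The log2 fold changes against SG were -0.61 in YSGr (adjusted p = 0.276) and -1.13 in YSGnr (adjusted p = 0.0813), with an SE of 0.32 for each. The 2 comparisons share the SG libraries, so the lower values in YSGr and YSGnr are not independent of each other. Between YSGr and YSGnr the 3 factors differed by 0.08 (Foxj1), 0.06 (Rfx2) and 0.53 (Rfx3) log2 units, none of them called (adjusted p = 0.912, 0.825 and 0.265).

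**Figure D2:**
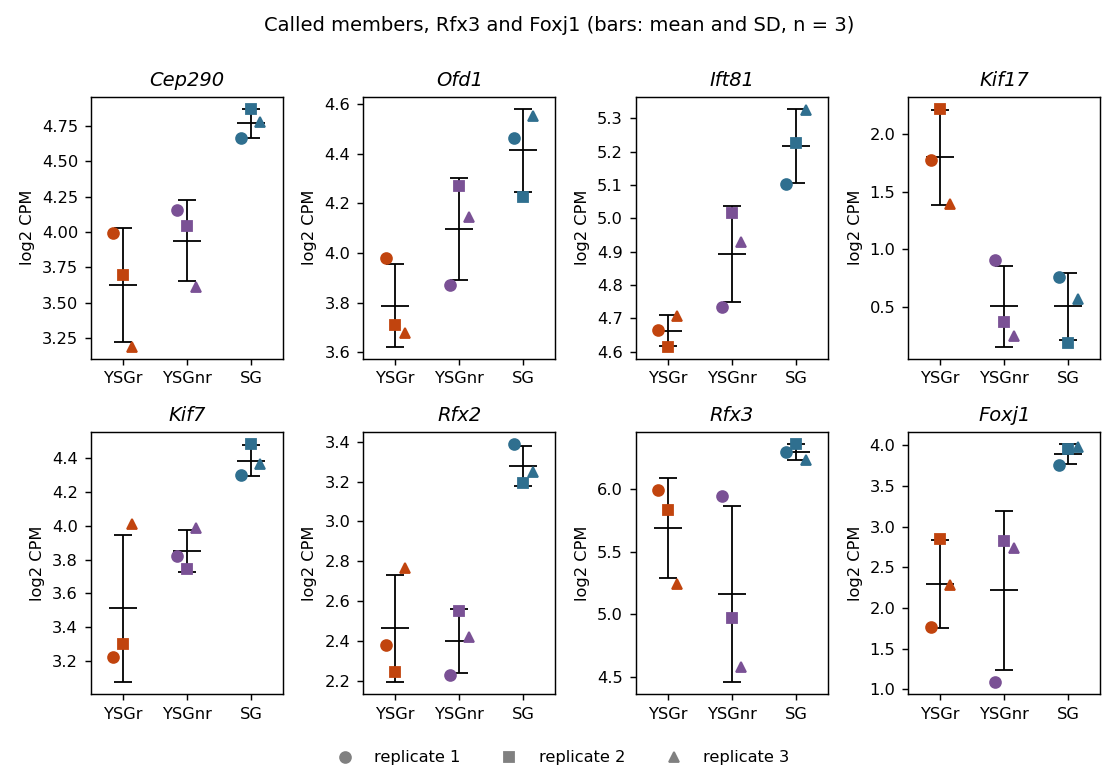
Level in log2 CPM (vertical axes, each with its own range) of the 6 genes called in at least 1 comparison and of Rfx3 and Foxj1 in each library of the YSGr, YSGnr and SG groups; symbols mark the replicate number and bars the mean and SD of 3 libraries. Rfx2, Rfx3, Foxj1, Cep290, Ift81 and Kif7 lie below all SG libraries in the YSGr and YSGnr libraries, and Kif17 lies above both other groups in the YSGr libraries.

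Of the 11 genes whose promoter held the looser X-box, 1 was called in YSGr against SG, where 10.5% of all genes were called, and 1 in YSGnr against SG, where 3.36% were. In each case it was Rfx2 itself. Their median log2 fold change was -0.26 in YSGr, with a range from -0.82 to 0.36, and -0.08 in YSGnr, with a range from -0.88 to 0.69. Bbs7, whose product is a BBSome subunit, stood at 3.93, 3.90 and 3.94 log2 CPM in YSGr, at 3.92, 4.07 and 3.81 in YSGnr and at 4.11, 4.24 and 4.19 in SG, below SG in all 6 libraries, and was not called (log2 fold change -0.26, SE 0.13, adjusted p = 0.255 in YSGr; log2 fold change -0.25, SE 0.13, adjusted p = 0.256 in YSGnr). The motile cilium and ependymal cell list held 29 tested genes of 38 in the table. Of them Ccdc40, an axonemal assembly gene, fell in YSGr (log2 fold change -0.75, SE 0.18, adjusted p = 0.0336; lost without YSGr replicate 1 or 2 or any SG replicate, adjusted p between 0.101 and 0.150). In YSGnr limma called none of these 29, and 3 had an unadjusted p below 0.05. In YSGr against YSGnr Myb, a transcription factor of multiciliated cell formation and of proliferating cells, fell (log2 fold change -0.94, SE 0.21, adjusted p = 0.0403; lost without any library other than YSGr replicate 3 or YSGnr replicate 1, adjusted p between 0.0774 and 0.187). The list summed to 106, 130 and 134 CPM in YSGr, to 140, 152 and 172 in YSGnr and to 129, 140 and 141 in SG, and its median log2 fold change was -0.34 in YSGr and -0.19 in YSGnr. Levels within the list were uneven. Of its 38 genes 18 did not exceed 1 log2 CPM in any library, among them the ependymal markers Tmem212 and Rsph1, whereas Tppp3 lay between 4.97 and 6.09. The part of such cells in the Foxj1 level was not tested.

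Choroid plexus epithelium also carries motile cilia, and its transcripts differed between libraries within each group. Ttr, its most abundant transcript, stood at -1.01, 9.86 and -0.19 log2 CPM in YSGr, at 5.35, 10.13 and 10.51 in YSGnr and at 7.33, 9.12 and 8.90 in SG, and the 12 listed genes summed to 29.1, 1033 and 82.4 CPM in YSGr, to 110, 1298 and 1693 in YSGnr and to 278, 696 and 626 in SG. Foxj1 was higher in YSGr replicate 2 and YSGnr replicates 2 and 3, the libraries with the most choroid plexus transcript in their groups, than in the other replicates of those groups. The part of choroid plexus tissue in the Foxj1 level was not tested. Of the 12 genes Otx2 fell in YSGr (log2 fold change -1.25, SE 0.33, adjusted p = 0.0416; lost without YSGr replicate 1 or 2, YSGnr replicate 2 or any SG replicate, adjusted p between 0.0603 and 0.154). Over the 9 libraries the genes with the profile most like that of Foxj1 by Pearson correlation of log2 CPM were Usp13 (0.957), Inadl (0.954), Robo3 (0.950), 5730480H06Rik (0.949) and Kcng1 (0.935) of 15250 genes compared. Rfx2 ranked 178 (0.822) and Rfx3 ranked 4149 (0.302). These 9 points are groups of libraries rather than independent draws and are given as a description.

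Transition zone and basal body genes gave the largest called fall. Cep290 (chr10:100487558-100574840, GRCm38), a large protein of the transition zone gate, stood at 3.99, 3.70 and 3.19 log2 CPM in YSGr, at 4.16, 4.05 and 3.61 in YSGnr and at 4.66, 4.87 and 4.78 in SG. It was lower in every YSGr and YSGnr library than in any SG library and fell 2.21-fold in YSGr (log2 fold change -1.14, SE 0.22, adjusted p = 0.0168). In YSGnr it was 1.78-fold lower and was not called (log2 fold change -0.83, SE 0.22, adjusted p = 0.0713). The YSGr call was lost without YSGr replicate 2 or SG replicate 1, 2 or 3 (adjusted p = 0.0624, 0.0671, 0.0776 and 0.0687). Ofd1, a basal body and centriolar satellite protein and the only X-linked gene of the set, stood at 3.98, 3.71 and 3.68 log2 CPM in YSGr, at 3.87, 4.27 and 4.15 in YSGnr and at 4.46, 4.23 and 4.55 in SG. All YSGr values were below SG, which is 1.54-fold (log2 fold change -0.62, SE 0.17, adjusted p = 0.0443), whereas YSGnr replicate 2 lay within the SG range (log2 fold change -0.32, SE 0.17, adjusted p = 0.253). That call was lost without any 1 library other than YSGr replicate 3 or YSGnr replicate 1 (adjusted p between 0.0534 and 0.173), and all YSGr libraries were Xist-high while no SG library was, so the X-linked state of the libraries cannot be told apart from the group.

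The rest of the gate was not called. Rpgrip1l, a scaffold of the transition zone, stood at 4.02, 3.82 and 3.54 log2 CPM in YSGr, at 3.92, 3.31 and 3.10 in YSGnr and at 4.09, 4.37 and 4.36 in SG. No YSGr or YSGnr value reached the SG range. Fitted log2 fold changes against SG were -0.48 in YSGr (adjusted p = 0.223) and -0.83 in YSGnr (adjusted p = 0.0746), with an SE of 0.23 for each. Tctn1, a tectonic of the transition zone complex, stood at 3.08, 3.24 and 3.29 log2 CPM in YSGr, at 3.73, 3.28 and 3.14 in YSGnr and at 3.41, 3.53 and 3.46 in SG. Its fitted log2 fold changes against SG were -0.26 in YSGr (adjusted p = 0.408) and -0.08 in YSGnr (adjusted p = 0.789), with an SE of 0.18 for each. Mks1, a B9-domain protein of that complex, stood at 2.47, 2.53 and 3.11 log2 CPM in YSGr, at 3.17, 3.12 and 3.19 in YSGnr and at 3.21, 2.96 and 3.13 in SG, with only YSGr replicates 1 and 2 below the other libraries. The gene's log2 fold changes against SG were -0.40 in YSGr (adjusted p = 0.249) and 0.06 in YSGnr (adjusted p = 0.867), with an SE of 0.20 for each. Exons of the opposite-strand gene Hvcn1 overlap 19.0% of the Tctn1 exon bases (the strand setting of the counting is not stated in the labels). Tctn2, another tectonic, had a like pattern, with 2.45 and 2.90 in YSGr replicates 1 and 2, 3.35 in YSGr replicate 3, 3.17 to 3.84 in YSGnr and 3.41 to 3.64 in SG.

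The rise was in a kinesin. Kif17 (chr4:138250435-138301967, GRCm38), a homodimeric kinesin-2 that moves cargo in cilia and in neurons carries NMDA receptor subunits along dendrites, stood at 1.78, 2.22 and 1.40 log2 CPM in YSGr, at 0.91, 0.37 and 0.25 in YSGnr and at 0.76, 0.19 and 0.57 in SG. All 3 YSGr libraries were above the other 6, and the level was 2.45-fold that of SG (log2 fold change 1.29, SE 0.32, adjusted p = 0.0337) and 2.45-fold that of YSGnr (log2 fold change 1.29, SE 0.32, adjusted p = 0.0477). YSGnr was level with SG (log2 fold change 0.0, SE 0.32, adjusted p = 0.997). The gene is the lowest of the 45 per kilobase in all 3 groups, at 1.01 CPM per kilobase of longest transcript in YSGr, 0.395 in YSGnr and 0.391 in SG, with 58 to 123 reads in YSGr, 7 to 29 in YSGnr and 29 to 45 in SG. Without YSGr replicate 1 or 2 or any SG replicate the call against SG was lost (adjusted p between 0.0923 and 0.147), and that against YSGnr was lost without any library other than YSGr replicate 3 or YSGnr replicate 1 (adjusted p between 0.0817 and 0.209). Markers of mature granule neurons were also higher in YSGr. Of 14 listed genes 10 rose against SG (6.58% of all genes were called higher) and 10 against YSGnr (5.09%), but 5 also rose in YSGnr against SG (1.19%), where Kif17 was level. Gabrd and Gabra6, GABA receptor subunits, Cbln3, a synaptic organiser, and Slc17a7, a vesicular glutamate transporter, had log2 fold changes of 3.42, 3.06, 3.32 and 2.94 in YSGr against SG. Each stayed called with any 1 library left out (highest adjusted p 0.0182). In YSGnr against SG they were 2.29, 1.47, 1.69 and 1.45, all called. Over the 14 listed genes the median there was 0.45, with 3 below 0 (lowest -0.54) and 9 not called. Gabra6 was lost there without YSGnr replicate 3 or any SG replicate, and Slc17a7 also without YSGr replicate 1 or 2 (adjusted p between 0.0731 and 0.193 over these). The list summed to 3355, 3176 and 1767 CPM in YSGr, to 1570, 1088 and 1213 in YSGnr and to 949, 958 and 1137 in SG. The part of these cells in the Kif17 level was not tested.

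The other 4 genes grouped as transport motors were not called in any comparison. Kif3a, a subunit of heterotrimeric kinesin-2, stood at 6.57, 6.67 and 6.57 log2 CPM in YSGr, at 6.20, 6.53 and 6.27 in YSGnr and at 6.53, 6.43 and 6.57 in SG. Its log2 fold changes against SG were 0.10 in YSGr (adjusted p = 0.687) and -0.17 in YSGnr (adjusted p = 0.394), with an SE of 0.13 for each. Kif3b, its partner, stood at 6.79, 6.78 and 6.14 log2 CPM in YSGr, at 6.0, 6.20 and 6.0 in YSGnr and at 6.23, 6.15 and 6.25 in SG, with YSGr replicates 1 and 2 above all other libraries and YSGr replicate 3 among them (log2 fold change 0.36, SE 0.18, adjusted p = 0.252 in YSGr). Dync2h1, the heavy chain of dynein-2 and the gene with the longest transcript of the set, stood at 5.87, 5.80 and 5.72 log2 CPM in YSGr, at 6.45, 5.79 and 5.65 in YSGnr and at 6.34, 6.12 and 6.28 in SG. The log2 fold changes against SG were -0.45 in YSGr (adjusted p = 0.182) and -0.29 in YSGnr (adjusted p = 0.373), with an SE of 0.20 for each. With a trend on transcript length and GC removed from each library, the YSGnr value was 0.32 (adjusted p = 0.276), in the opposite direction. Dync2li1, the light intermediate chain, stood at 3.13, 2.94 and 3.84 log2 CPM in YSGr, at 3.21, 4.21 and 4.18 in YSGnr and at 3.63, 3.89 and 3.82 in SG, with YSGr replicates 1 and 2 and YSGnr replicate 1 as the low libraries and no call in any comparison.

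Of the 11 complex B genes 1 was called in YSGr against SG, Ift81, where 10.5% of all genes were called. Ift81 (chr5:122550204-122614518, GRCm38), which forms a tubulin-binding module with Ift74, stood at 4.67, 4.62 and 4.71 log2 CPM in YSGr, at 4.74, 5.02 and 4.93 in YSGnr and at 5.10, 5.22 and 5.33 in SG. The YSGr libraries lay close together, below every YSGnr and SG library, and the level was 1.47-fold lower than in SG (log2 fold change -0.55, SE 0.13, adjusted p = 0.0277). YSGnr was not called (log2 fold change -0.32, SE 0.13, adjusted p = 0.161). Without YSGr replicate 1 or 2 or any SG replicate the YSGr call was lost (adjusted p between 0.0874 and 0.130). Its partner Ift74 stood at 4.03, 4.22 and 4.69 log2 CPM in YSGr, at 4.79, 5.02 and 4.96 in YSGnr and at 4.80, 4.94 and 4.99 in SG. It was low in YSGr in each library, most in replicates 1 and 2, and was not called against SG (log2 fold change -0.60, SE 0.18, adjusted p = 0.0632) or YSGnr (log2 fold change -0.61, SE 0.18, adjusted p = 0.0679).

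No other complex B gene was called in any comparison. Ift88, a core subunit without which mouse cells fail to grow a cilium, stood at 3.68, 3.88 and 3.89 log2 CPM in YSGr, at 3.79, 3.88 and 3.79 in YSGnr and at 4.06, 4.0 and 3.99 in SG. Fitted log2 fold changes against SG were -0.20 in YSGr (adjusted p = 0.386) and -0.20 in YSGnr (adjusted p = 0.357), with an SE of 0.13 for each. Ift172, a peripheral subunit that in Chlamydomonas acts in turnaround at the tip, stood at 5.71, 5.77 and 5.89 log2 CPM in YSGr, at 5.70, 5.56 and 5.91 in YSGnr and at 5.80, 5.78 and 5.82 in SG. Its fitted log2 fold changes against SG were -0.01 in YSGr (adjusted p = 0.974) and -0.08 in YSGnr (adjusted p = 0.718), with an SE of 0.13 for each. Ift46, a core subunit, stood at 5.17, 5.16 and 5.91 log2 CPM in YSGr, at 5.87, 6.26 and 6.40 in YSGnr and at 5.70, 5.69 and 5.57 in SG, lower in YSGr replicates 1 and 2 and higher in every YSGnr library than in any SG library. It was not called in YSGr against YSGnr (log2 fold change -0.76, SE 0.22, adjusted p = 0.0656). The small GTPase-like Ift22 and Ift27 and the subunits Ift20 and Ift52 were higher in every YSGnr library than in any SG library, with log2 fold changes of 0.69, 0.68, 0.51 and 0.40, none called (adjusted p = 0.145, 0.224, 0.142 and 0.168). With the length and GC trend removed, every YSGnr library was still above SG in these genes. The log2 fold changes were then smaller, at 0.39 for Ift27, 0.23 for Ift20 and 0.24 for Ift52. Ift22 then stood at 4.60, 5.12 and 5.22 in YSGnr and at 4.29, 4.55 and 4.38 in SG. Ift80 and Ift57 had log2 fold changes of -0.46 and 0.24 in YSGr against SG, and neither was called in any comparison.

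Complex A genes showed no call. Ift140, a core subunit, stood at 5.51, 5.42 and 5.98 log2 CPM in YSGr, at 6.21, 5.85 and 6.37 in YSGnr and at 5.66, 5.86 and 5.86 in SG. The gene's log2 fold changes against SG were -0.15 in YSGr (adjusted p = 0.674) and 0.35 in YSGnr (adjusted p = 0.259), with an SE of 0.19 for each. Ift122, another core subunit, stood at 4.82, 4.85 and 5.13 log2 CPM in YSGr, at 5.15, 5.15 and 5.45 in YSGnr and at 5.17, 5.21 and 5.09 in SG. Its log2 fold changes against SG were -0.22 in YSGr (adjusted p = 0.366) and 0.10 in YSGnr (adjusted p = 0.686), with an SE of 0.14 for each. Ift43 averaged 3.32 ± 0.48 log2 CPM in YSGr, 3.83 ± 0.37 in YSGnr and 3.55 ± 0.04 in SG (SD, n = 3 each). In the deposited values the YSGr mean was below and the YSGnr mean above the SG mean in each of the 3 genes, although for Ift43 the YSGnr difference was -0.09 with the length and GC trend removed. Between YSGr and YSGnr the log2 differences were -0.51 for Ift140, -0.32 for Ift122 and -0.51 for Ift43 (adjusted p = 0.106, 0.148 and 0.197).

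The BBSome and its assembly factors held no called gene among 9. Bbs1 stood at 4.65, 4.67 and 4.54 log2 CPM in YSGr, at 4.74, 4.31 and 4.18 in YSGnr and at 4.53, 4.70 and 4.36 in SG. The log2 fold changes against SG were 0.09 in YSGr (adjusted p = 0.798) and -0.12 in YSGnr (adjusted p = 0.686), with an SE of 0.17 for each. Bbs4 stood at 4.39, 4.50 and 4.21 log2 CPM in YSGr, at 4.12, 4.38 and 4.52 in YSGnr and at 4.0, 4.06 and 4.24 in SG. Fitted log2 fold changes against SG were 0.27 in YSGr (adjusted p = 0.321) and 0.24 in YSGnr (adjusted p = 0.345), with an SE of 0.16 for each. Arl6, also known as Bbs3, the GTPase that recruits the BBSome to membranes, stood at 4.43, 4.31 and 4.85 log2 CPM in YSGr, at 4.90, 5.41 and 5.44 in YSGnr and at 4.55, 4.68 and 4.56 in SG. All YSGnr libraries were above all others in Arl6, and it came nearest to the threshold of the 9 (YSGnr against SG log2 fold change 0.66, SE 0.19, adjusted p = 0.0847; YSGr against YSGnr log2 fold change -0.72, SE 0.19, adjusted p = 0.0555). Bbs2, Bbs5, Bbs7, Bbs9, Bbs10 and Bbs12 had log2 fold changes between -0.43 and 0.19 in YSGr and between -0.25 and 0.21 in YSGnr, the lowest in YSGr being Bbs9 (-0.43, adjusted p = 0.199). Bbs10 and Bbs12, chaperonin-like factors that assemble the BBSome, were the least even of the 45 genes across the SG libraries, with an SD of 0.32 log2 units for each.

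No ciliary membrane gene was called. Arl13b, the GTPase that marks the ciliary membrane, stood at 3.66, 3.71 and 3.77 log2 CPM in YSGr, at 4.10, 3.88 and 3.53 in YSGnr and at 3.67, 4.16 and 3.91 in SG. Its fitted log2 fold changes against SG were -0.20 in YSGr (adjusted p = 0.564) and -0.08 in YSGnr (adjusted p = 0.820), with an SE of 0.19 for each. Arl3, which releases lipidated cargo inside the cilium, was the highest gene of the set per length in all groups, at 49.1 CPM per kilobase in YSGr, 60.3 in YSGnr and 44.3 in SG. It stood at 5.53, 5.42 and 6.21 log2 CPM in YSGr, at 5.34, 6.41 and 6.22 in YSGnr and at 5.47, 5.75 and 5.60 in SG. The gene's log2 fold changes against SG were 0.11 in YSGr (adjusted p = 0.860) and 0.38 in YSGnr (adjusted p = 0.423), with an SE of 0.29 for each. With the length and GC trend removed, the YSGnr value was 0.10. Inpp5e, the phosphatase that keeps the ciliary membrane low in PI(4,5)P2, stood at 5.05, 5.09 and 5.0 log2 CPM in YSGr, at 5.07, 4.63 and 4.66 in YSGnr and at 4.57, 4.77 and 4.71 in SG. Every YSGr library was above SG in Inpp5e, with no call (log2 fold change 0.36, SE 0.15, adjusted p = 0.158), and exons of the opposite-strand gene Pmpca overlap 20.3% of its exon bases.

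**Figure D3:**
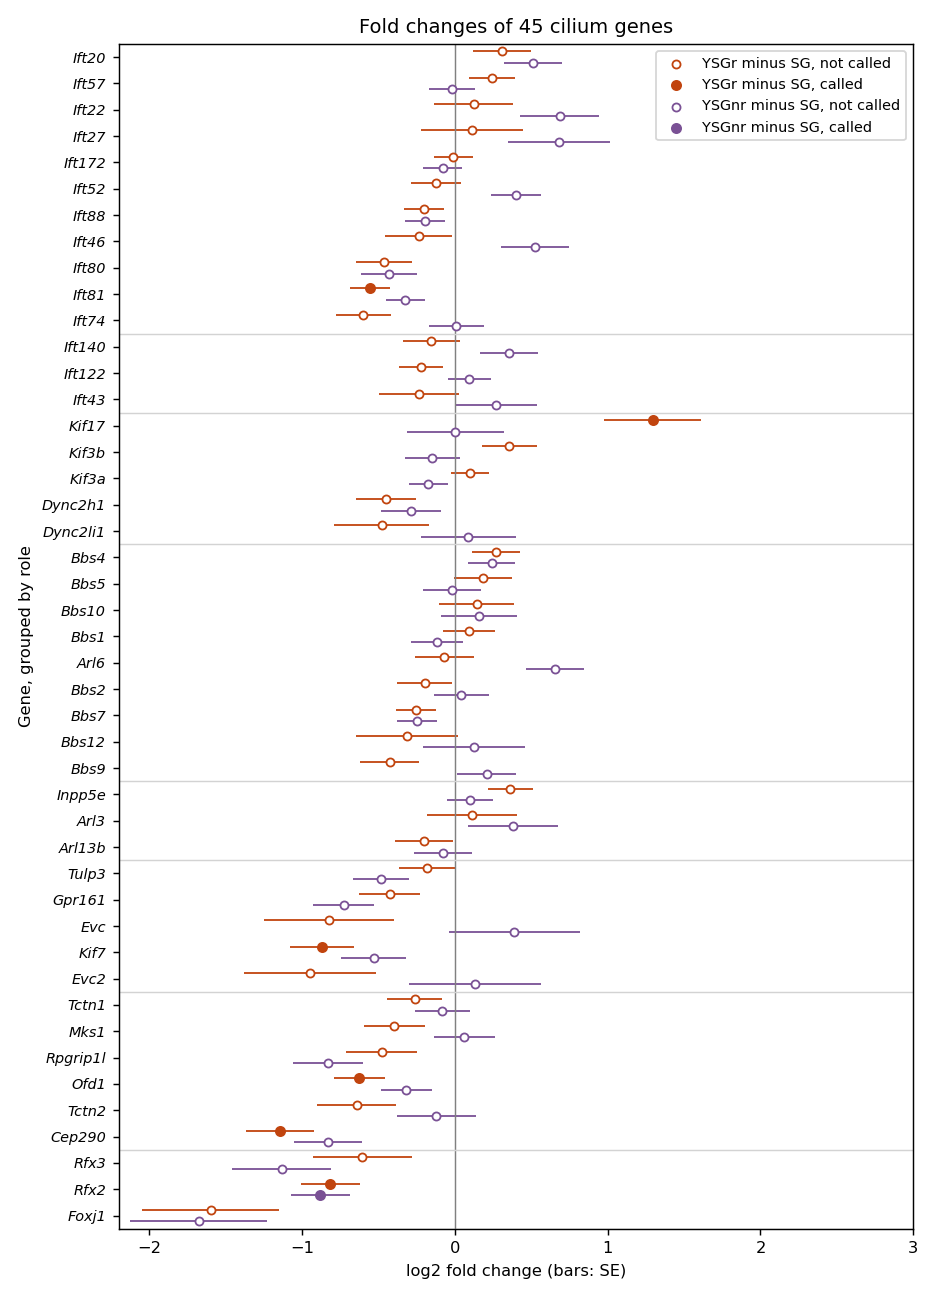
Log2 fold change against SG of 45 genes (rows, grouped by role and separated by grey lines) in YSGr and YSGnr, with bars for the SE; filled points were called at an adjusted p below 0.05. The filled YSGr points are Ift81, Kif17, Kif7, Ofd1, Cep290 and Rfx2, the filled YSGnr point is Rfx2, and Foxj1 is farthest to the left in both with open points.

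The set holds 5 genes that connect the cilium to Hedgehog signalling, of which Kif7 was called. Kif7 (chr7:79698098-79715720, GRCm38), a kinesin-4 that organises the ciliary tip and the Gli-Sufu complex there, stood at 3.22, 3.30 and 4.01 log2 CPM in YSGr, at 3.82, 3.75 and 3.99 in YSGnr and at 4.30, 4.48 and 4.37 in SG. It was lower in all 6 libraries with the floxed allele than in SG and fell 1.83-fold in YSGr (log2 fold change -0.87, SE 0.21, adjusted p = 0.0327), while YSGnr was not called (log2 fold change -0.53, SE 0.21, adjusted p = 0.161). The YSGr call was lost without YSGr replicate 1 or 2 or any SG replicate (adjusted p between 0.105 and 0.133), and exons of the opposite-strand transcript 9330171B17Rik overlap 19.1% of Kif7 exon bases. Gpr161, a ciliary receptor that raises cAMP and restrains the pathway, stood at 4.36, 4.02 and 3.78 log2 CPM in YSGr, at 4.10, 3.55 and 3.61 in YSGnr and at 4.49, 4.40 and 4.56 in SG, also below SG in all 6. Its log2 fold changes against SG were -0.43 in YSGr (adjusted p = 0.215) and -0.73 in YSGnr (adjusted p = 0.0744), with an SE of 0.20 for each. Tulp3, which with complex A brings Gpr161 into the cilium, stood at 4.73, 4.96 and 5.27 log2 CPM in YSGr, at 4.77, 4.38 and 4.90 in YSGnr and at 5.23, 5.25 and 5.02 in SG. The log2 fold changes against SG were -0.18 in YSGr (adjusted p = 0.603) and -0.48 in YSGnr (adjusted p = 0.150), with an SE of 0.19 for each.

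Evc and Evc2 divided the YSGr group. Their products form a complex at the base of the cilium that relays the signal from Smoothened, and the 2 genes lie head to head on chromosome 5 (Evc chr5:37289098-37336894, minus strand; Evc2 chr5:37338499-37425055, plus strand; GRCm38). Evc stood at 4.11, 4.01 and 5.89 log2 CPM in YSGr, at 5.81, 5.65 and 6.18 in YSGnr and at 5.56, 5.57 and 5.35 in SG. Evc2 stood at 3.06, 2.83 and 4.72 log2 CPM in YSGr, at 4.19, 4.85 and 4.82 in YSGnr and at 4.55, 4.55 and 4.35 in SG. YSGr replicates 1 and 2 were below every other library by more than 1 log2 unit in each gene, and YSGr replicate 3 was above the SG libraries. With that spread the log2 difference was -0.82 for Evc and -0.95 for Evc2 against SG and -1.21 and -1.08 against YSGnr, none called (adjusted p = 0.264, 0.203, 0.0959 and 0.122). With YSGr replicate 3 and YSGnr replicate 1 left out, the difference from SG was -1.43 for Evc and -1.54 for Evc2 (adjusted p = 4.69e-05 and 9.21e-06), and 49.5% of all genes were then called. That setting omits the YSGr library with the high values, so its p-values do not describe the 3 libraries labelled YSGr.

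The Hedgehog target genes had the same division of YSGr libraries. Gli1, a transcription factor that is itself a target, stood at 5.12, 5.01 and 7.57 log2 CPM in YSGr, at 7.49, 7.30 and 7.42 in YSGnr and at 7.65, 7.75 and 7.48 in SG. Ptch1, the receptor that is induced as feedback, stood at 6.77, 6.53 and 8.27 log2 CPM in YSGr, at 8.60, 8.02 and 7.85 in YSGnr and at 9.24, 8.91 and 8.91 in SG, and Hhip, a ligand-binding inhibitor induced likewise, at 2.67, 2.76 and 4.61 log2 CPM in YSGr, at 4.84, 5.01 and 4.53 in YSGnr and at 5.73, 5.74 and 5.68 in SG. In YSGr replicates 1 and 2 each of the 3 was below all other libraries, and YSGr replicate 3 was near YSGnr. Ptch1 and Hhip fell in YSGr (log2 fold change -1.83, SE 0.41, adjusted p = 0.0244 for Ptch1; log2 fold change -2.37, SE 0.44, adjusted p = 0.0136 for Hhip), each lost without YSGr replicate 1 or 2 or any SG replicate (adjusted p between 0.0771 and 0.104 for Ptch1 and between 0.0529 and 0.0647 for Hhip). Gli1 was not called (log2 fold change -1.72, SE 0.56, adjusted p = 0.0838). Of 22 tested Hedgehog pathway genes 4 (18.2%) fell in YSGr, where 3.97% of all genes were called lower. This list also holds Kif7 of the set, which was 1 of the 4 with Ptch1 and Hhip. Among the 4 was Gli3, the main repressor of the pathway, at 4.54, 4.14 and 4.44 log2 CPM in YSGr, at 4.23, 4.01 and 3.84 in YSGnr and at 5.32, 5.07 and 5.08 in SG. Gli3 fell in YSGr (log2 fold change -0.78, SE 0.16, adjusted p = 0.020) and was the 1 of 22 (4.55%, against 2.17% of all genes called lower and 3.36% called) that fell in YSGnr (log2 fold change -1.13, SE 0.16, adjusted p = 0.0132). Those calls were lost without any SG replicate, the first also without YSGr replicate 1 or 2 (adjusted p between 0.0526 and 0.0994) and the second without YSGnr replicate 3 (adjusted p between 0.0573 and 0.110). Against YSGnr, 3 of the 22 (13.6%) rose in YSGr, where 5.09% of all genes were called higher. They were Shh, Cdon and Scube1, with log2 fold changes of 2.46, 1.40 and 1.94. Each was lost without any library other than YSGr replicate 3 or YSGnr replicate 1 (adjusted p between 0.0774 and 0.190). Granule neuron progenitor markers moved with this division: their sum was 3842 and 3062 CPM in YSGr replicates 1 and 2 and 4618 in replicate 3, against 4837 to 5353 in YSGnr and 5120 to 5278 in SG. Of the 14, 4 (28.6%) fell in YSGr against SG, where 3.97% of all genes were called lower. Besides Ptch1 and Hhip these were the proliferation genes Mki67 (log2 fold change -1.02, SE 0.19, adjusted p = 0.0141; lost without YSGr replicate 2 or any SG replicate, adjusted p between 0.0617 and 0.0733) and Top2a (log2 fold change -0.81, SE 0.20, adjusted p = 0.0327; lost without YSGr replicate 1 or 2 or any SG replicate, adjusted p between 0.109 and 0.125). Their part in the Evc and Evc2 levels was not tested.

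**Figure D4:**
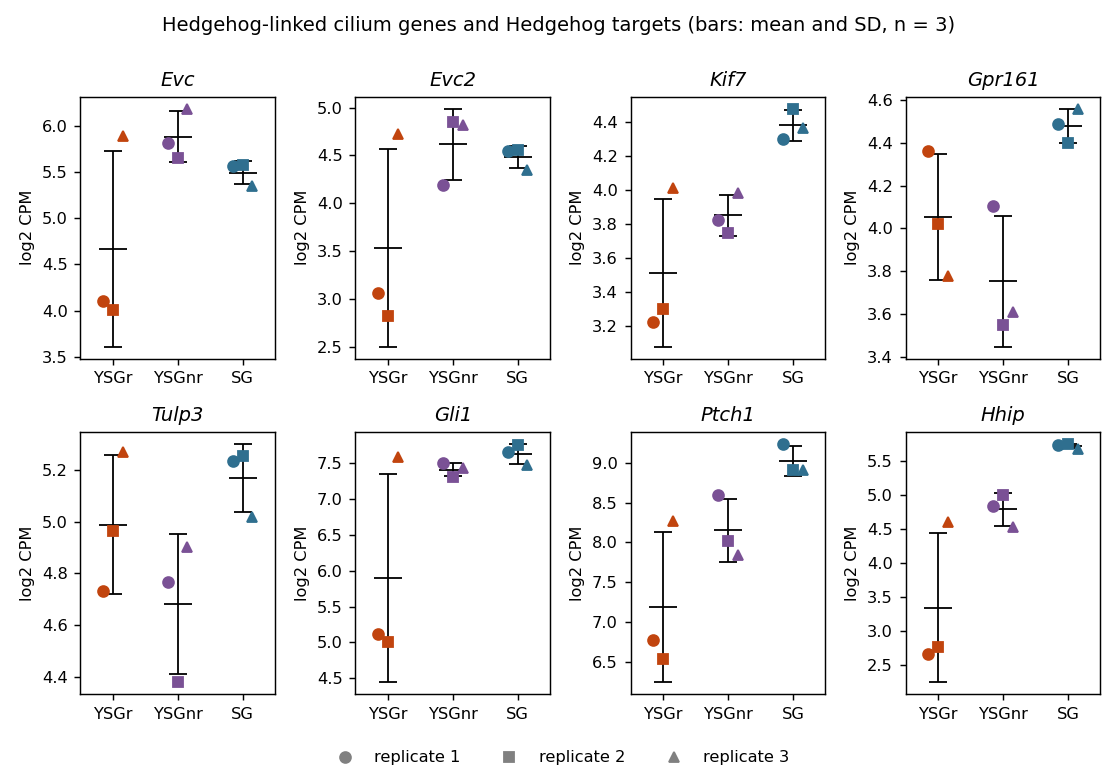
Level in log2 CPM (vertical axes, each with its own range) of the 5 ciliary genes linked to Hedgehog signalling and of the targets Gli1, Ptch1 and Hhip in each library of the YSGr, YSGnr and SG groups; symbols mark the replicate number and bars the mean and SD of 3 libraries. YSGr replicates 1 and 2 are the lowest libraries for Evc, Evc2, Kif7, Gli1, Ptch1 and Hhip, with YSGr replicate 3 above them.

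The same split ran through much of the set. The median difference of the 45 genes from the SG mean was -0.33, -0.34 and 0.02 in the YSGr libraries and -0.10, -0.05 and 0.0 in the YSGnr libraries. For the 5 Hedgehog-linked genes the medians were -1.16, -1.08 and 0.10 in YSGr and -0.38, -0.64 and -0.27 in YSGnr. The median of the 3 transcription factors did not show it, at -0.90, -1.03 and -1.06 in YSGr and -1.05, -1.07 and -1.15 in YSGnr. Among them, Rfx2 was nearest to SG in YSGr replicate 3 (-0.90, -1.03 and -0.51), whereas Rfx3 was farthest there (-0.30, -0.46 and -1.06). With the length and GC trend removed, Rfx3 was level in YSGr (5.62, 5.52 and 5.67 log2 CPM). Foxj1 stood at -2.13, -1.05 and -1.61. Medians in YSGr were also similar across libraries for the 6 transition zone and basal body genes (-0.53, -0.60 and -0.47) and the 5 motors (0.07, 0.16 and 0.06). Single genes of these roles did split, in both directions. Kif3b stood at 0.57, 0.57 and -0.08, Dync2li1 at -0.65, -0.84 and 0.06, Mks1 at -0.63, -0.57 and 0.01, and Tctn2 at -1.09, -0.64 and -0.20. By contrast Cep290 (-0.78, -1.07 and -1.58), Rpgrip1l, Ofd1 and Dync2h1 were farthest below SG in YSGr replicate 3. The median SD of the 45 genes was 0.27 in YSGr, 0.27 in YSGnr and 0.11 in SG.

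Transcript length moved with the differences in 3 of the libraries. Across the 45 genes the Spearman correlation between the difference from the SG mean and the length of the longest transcript was -0.08, -0.09 and -0.51 in YSGr and -0.06, -0.59 and -0.55 in YSGnr, and over 14630 genes it was 0.15, 0.13 and -0.41 in YSGr and -0.07, -0.52 and -0.50 in YSGnr. Genes are not independent replicates, so these are descriptions of each library. Genes of at least 5000 bases had a median difference of -0.46 in YSGnr replicate 2 and -0.60 in replicate 3, and those under 2500 bases 0.45 and 0.49. Rfx3, Cep290 and Rpgrip1l are among the long ones. With a trend on length and GC removed from each library, their log2 fold changes in YSGnr were -0.58, -0.29 and -0.42, against -1.13, -0.83 and -0.83 without the removal. In YSGr the trend-removed fit called 6 genes, of which Ift81, Kif7, Cep290 and Rfx2 were called without it and Foxj1 (-1.84, adjusted p = 0.0316) and Ift20 (0.44, adjusted p = 0.0269) were not. Kif17 and Ofd1 then missed the threshold (adjusted p = 0.0567 and 0.0610). In YSGnr it called Rfx2 (-0.88, adjusted p = 0.0396). Between YSGr and YSGnr it called 4 genes, all lower in YSGr, and did not call Kif17 (1.10, adjusted p = 0.0537).

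**Figure D5:**
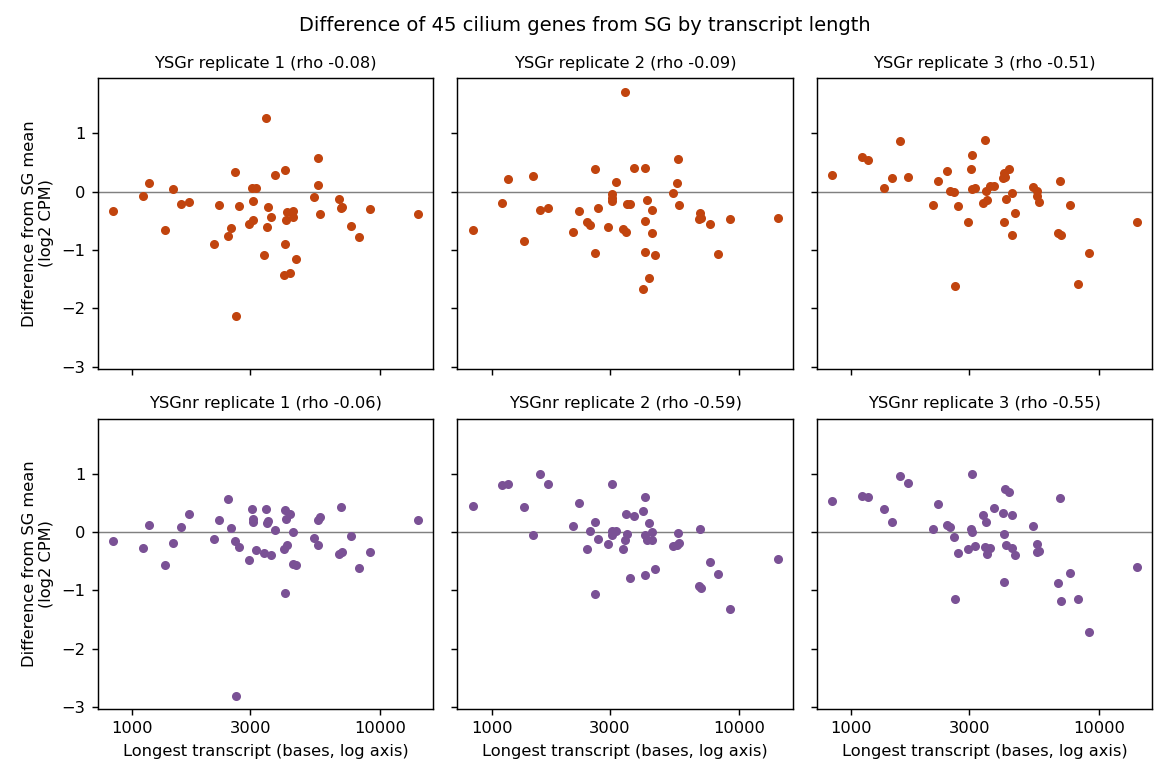
Difference of 45 genes from the SG mean in log2 CPM (vertical axes) against the longest transcript in bases (horizontal log axes), in the 3 YSGr libraries above and the 3 YSGnr libraries below, with the Spearman rho of each. Points slope downward in YSGr replicate 3 and YSGnr replicates 2 and 3, where rho is -0.51, -0.59 and -0.55, and rho is between -0.09 and -0.06 in the other 3.

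Further genes of the cilium outside the set were described as lists. In YSGr against SG, 10% of 20 intraflagellar transport genes and 8% of 25 BBSome and cargo genes were called, against 10.5% of all genes. Of 25 transition zone and nephronophthisis genes 0 were called there, and 4% in YSGnr against SG, where 3.36% of all genes were. In YSGr against YSGnr the first 2 lists had 5% and 8% called, against 5.97% of all genes. Of 20 tested genes of intraflagellar transport in a second list, Dynll2, a dynein light chain, rose in YSGr against SG (log2 fold change 0.69, SE 0.13, adjusted p = 0.0165) and against YSGnr (log2 fold change 0.92, SE 0.13, adjusted p = 0.0244), at 8.19, 8.09 and 7.90 log2 CPM in YSGr, at 7.21, 7.08 and 7.14 in YSGnr and at 7.24, 7.38 and 7.51 in SG, and Wdr35, a complex A subunit, fell in YSGr (log2 fold change -0.57, SE 0.16, adjusted p = 0.0496). Dynll2 was lost against SG without YSGr replicate 1 or 2 or any SG replicate (adjusted p between 0.0507 and 0.0906). Against YSGnr Dynll2, and against SG Wdr35, was lost without any library other than YSGr replicate 3 or YSGnr replicate 1 (adjusted p between 0.0630 and 0.144 for Dynll2 and between 0.0611 and 0.193 for Wdr35). Of 25 tested transition zone and nephronophthisis genes, Nphp4 fell in YSGnr (log2 fold change -0.78, SE 0.16, adjusted p = 0.0365; lost without any library other than YSGr replicate 3 or YSGnr replicate 1, adjusted p between 0.0580 and 0.173).

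The second list of BBSome and cargo genes gave calls in both directions. Efcab7, which with Iqce anchors the Evc-Evc2 complex at the base of the cilium, stood at 0.39, 0.69 and 1.16 log2 CPM in YSGr, at 1.77, 2.33 and 1.52 in YSGnr and at 2.70, 2.89 and 2.85 in SG. It fell in YSGr (log2 fold change -2.07, SE 0.28, adjusted p = 0.00420) and kept its call with any 1 library left out (highest adjusted p 0.0323). It also fell in YSGr against YSGnr (log2 fold change -1.12, SE 0.28, adjusted p = 0.0490), lost without any library other than YSGr replicate 3 or YSGnr replicate 1 (adjusted p between 0.0912 and 0.205). Iqce itself, named for that partnership after its values were seen, was not called (log2 fold change -0.29, SE 0.15, adjusted p = 0.265 in YSGr; log2 fold change -0.38, SE 0.15, adjusted p = 0.160 in YSGnr). Sstr3, a somatostatin receptor of neuronal cilia, stood at 1.49, 1.70 and 1.60 log2 CPM in YSGr, at 0.70, 0.73 and 1.28 in YSGnr and at -0.64, -0.01 and 0.11 in SG. It rose in YSGr (log2 fold change 1.78, SE 0.30, adjusted p = 0.00986) and was lost only without YSGr replicate 2 (adjusted p = 0.0545). These 2 were the called genes of 25 tested in YSGr against SG (8%, against 10.5% of all genes). In YSGr against YSGnr Wdpcp, a planar polarity effector, fell beside Efcab7 (log2 fold change -0.99, SE 0.22, adjusted p = 0.0415; lost without any library other than YSGr replicate 3 or YSGnr replicate 1, adjusted p between 0.0774 and 0.188).

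Of 34 tested basal body and ciliogenesis genes, 4 (11.8%) were called in YSGr against SG, all of them lower, against 3.97% of all genes called lower and 10.5% called in either direction. The list had a median log2 fold change of -0.37. Nin (ninein), a subdistal appendage protein, stood at 5.36, 5.12 and 6.09 log2 CPM in YSGr, at 6.42, 6.38 and 5.92 in YSGnr and at 6.96, 6.86 and 6.87 in SG and fell (log2 fold change -1.38, SE 0.24, adjusted p = 0.0110). Cep83 and Sclt1, distal appendage proteins that dock the centriole to the membrane, and Cep135, a centriole assembly protein, fell by 0.83, 0.57 and 0.68 log2 units (adjusted p = 0.0186, 0.0197 and 0.0370). Each was lost without YSGr replicate 1 or SG replicate 1 or 2, and Cep83, Sclt1 and Cep135 also without YSGr replicate 2 or SG replicate 3, Cep135 further without YSGnr replicate 2 (adjusted p between 0.0513 and 0.152 over these). In YSGnr limma called none of the 34, and 7 had an unadjusted p below 0.05. Cep83 also fell in YSGr against YSGnr (log2 fold change -0.69, SE 0.17, adjusted p = 0.0475; lost without any library other than YSGr replicate 3 or YSGnr replicate 1, adjusted p between 0.0869 and 0.202). Several genes of this list, such as Plk4 and Aurka, act in centriole duplication and mitosis, and the proliferation marker Mki67 stood at 8.96, 8.48 and 8.94 log2 CPM in YSGr, at 9.65, 9.41 and 9.19 in YSGnr and at 9.84, 9.76 and 9.85 in SG. The part of proliferation in these values was not tested.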

How the data were processed

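RNA of 9 libraries (3 YSGr, 3 YSGnr, 3 SG) was profiled. Per the labels' protocols, RNA was isolated from tumour tissue with a Trizol-type reagent and sequenced by BGI on the DNBseq platform. Per the submitters' processing notes, the tools were Bowtie2, RSEM, edgeR, Picard and Trimmomatic, with mm10 as build. Annotation and strand setting: not given in the sources used here. A single table of log2 CPM was deposited by the authors. Its lowest value, -3.52 in each library, implies a mean added count of 2.0 reads. Reads were back-calculated from this scale for description and an alternative; 59.7% to 69.8% of values per library came out whole to within 0.02 reads. Fold changes of low genes are understated on this scale.

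The test was limma (3.58.1, R 4.3.3), fitted to the deposited log2 CPM as group means over all 9 libraries with a mean-variance trend, two-sided, and checked on simulated data. Symbols were matched to GENCODE M21 (GRCm38, the assembly of mm10). Other lists of cilium genes and of cell markers were described by counts and medians. Named were all called genes, fixed genes for each role, up to 4 called genes per further list, and Yap1, Gli1, Ptch1, Hhip, Xist and Ddx3y. The members and lists were chosen with earlier results of these data known. Alternatives were other filters, pseudocounts, scalings, weights and limma voom, a replicate block, a length and GC trend removed, and libraries left out.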

Additional observations from a re-analysis of the deposited data

How the results depend on the processing

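The alternatives were followed for 139 fold changes, 84 of them of the set. These were all with an unadjusted p below 0.05 in the set, all called in the lists, Yap1 where called, and others given in the text. Not all of them are named here. Of 3335 values under the alternatives, 3274 kept the direction of the main fit. None of the 8 called fold changes of the set reversed; the other 61 values belong to fold changes that were not called, most of them near 0, and the cause was not tested. With the length and GC trend removed, the YSGnr against SG log2 fold change was 0.315 for Dync2h1 (-0.29 as reported), 0.0852 for Tctn1, 0.0616 for Ift172, 0.0532 for Bbs1, 0.0328 for Ift80, -0.0519 for Kif17 and -0.128 for Mks1, the same with the block added. In that fit Arl6 was 0.121 in YSGr against SG, and YSGr against YSGnr gave -0.0260 for Foxj1 and -0.0656 for Rfx2. With YSGr replicate 3 and YSGnr replicate 1 also omitted, YSGnr against SG gave 0.376 for Dync2h1 (adjusted p = 0.00263 by limma), 0.128 for Ift172, 0.0310 for Ift80, 0.0281 for Ift88, -0.0303 for Inpp5e, -0.200 for Mks1 and -0.212 for Kif17, and YSGr against YSGnr -0.563 for Foxj1 and -0.317 for Rfx2. Omitting these 2 libraries without removing the trend gave -0.136 for Arl3 in YSGr, -0.197 for Kif17 and -0.0423 for Inpp5e in YSGnr, and -0.479 for Foxj1 and -0.172 for Rfx2 between YSGr and YSGnr. Array weights gave -0.0740 for Arl3 in YSGr, -0.191 for Kif17 and -0.0222 for Inpp5e in YSGnr, and -0.761 for Foxj1 and -0.121 for Rfx2 between YSGr and YSGnr. With limma voom Kif17 was -0.0697 in YSGnr, and Foxj1 -0.253 and Rfx2 -5.12e-05 between YSGr and YSGnr. Quantile normalization gave 0.00349 for Ift172 in YSGr and -0.00450 for Rfx2 between YSGr and YSGnr. With 1 library left out, the range also included 0 for some: in YSGr against SG it ran between -0.0590 and 0.0317 for Ift172, between -0.228 and 0.0407 for Arl6 and between -0.136 and 0.262 for Arl3. In YSGnr against SG it ran between -0.170 and 0.00524 for Ift172, between -0.00321 and 0.146 for Ift122, between -0.197 and 0.132 for Kif17, between -0.210 and 0.0787 for Arl13b, between -0.0423 and 0.177 for Inpp5e, between -0.256 and 0.0385 for Tctn1 and between -0.00934 and 0.117 for Mks1. In YSGr against YSGnr it ran between -0.486 and 0.381 for Foxj1 and between -0.0864 and 0.173 for Rfx2.

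The number of genes of the set called is less stable than their direction. As reported it was 6 for YSGr against SG, 1 for YSGnr against SG and 1 for YSGr against YSGnr. With each library left out in turn it lay between 0 and 15, between 0 and 11 and between 0 and 19, the highest without YSGr replicate 3 (15, 10 and 19) or YSGnr replicate 1 (8, 11 and 11), and 0 in all 3 comparisons whichever SG library was left out. Omitting YSGr replicate 3 together with YSGnr replicate 1 gave 27, 22 and 27, and with the trend removed as well, an alternative chosen after seeing the data, 29, 19 and 27. Array weights gave 33, 19 and 29; their estimation stopped before convergence, and they set these 2 libraries at 0.104 and 0.117. In such fits calls are common: with both omitted 49.5%, 52.9% and 64.7% of all genes were called, and with array weights 63.3%, 48.0% and 65.4%. For YSGnr against SG the count was 0 with no filter, 0 with quantile normalization, 2 with the 6 libraries alone and 5 with limma voom. For YSGr against YSGnr it was 0 with no filter, 0 with median scaling, 0 with the 6 libraries alone, 4 with limma voom and 4 with the trend removed. With limma voom 1 of the 4 was higher in YSGr and 3 were lower. With the trend removed all 4 were lower in YSGr, with or without the replicate block. Kif17 was not among these (adjusted p = 0.0537 without and 0.0662 with the block, by limma). With the 6 libraries alone, 0 of all genes were called in that comparison. Calls over all genes also fell whichever SG library was left out. They went from 1608 to between 328 and 417 for YSGr against SG and from 512 to between 19 and 23 for YSGnr against SG. For YSGr against YSGnr they went from 910 to between 8 and 10. Without YSGr replicate 3 they were 4257, 2634 and 6528.

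The labels do not say that the replicate numbers pair the libraries. Same-numbered libraries correlated in their deviations from the group means at -0.03, -0.11 and -0.23 (YSGr and SG), at 0.24, 0.11 and 0.05 (YSGnr and SG) and at 0.23, -0.15 and 0.21 (YSGr and YSGnr). Differently numbered libraries of 2 groups correlated between -0.25 and 0.23. Deviations from a mean of 3 libraries are not independent, so these values cannot decide on pairing. With the replicate block the counts were 3, 1 and 0, and with the block and the trend removed 5, 1 and 4. The 1 gene called in YSGnr against SG was then Foxj1 (adjusted p = 0.0424 and 0.0423 by limma), while Rfx2 missed the threshold (adjusted p = 0.0695 and 0.0727). Counts of the further lists also changed by over 1.5 times under some of these settings. Of the tested genes of the set, depth limits Kif17, Foxj1, Bbs5, Bbs10 and Rfx2 most, with 7, 8, 15, 16 and 18 reads in YSGnr replicate 1.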
